A study of Mus musculus with 10 samples.

Results

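The genes described here encode the mouse proteasome: the subunits of its 20S core and 19S cap, the chaperones that assemble both, its activators and its inhibitor. They were chosen by name, as all genes whose symbol begins with Psma, Psmb, Psmc, Psmd, Psme, Psmf or Psmg followed by a number only. The rule took 48 of the 18193 genes that the arrays name. Of these, 47 were read from a probe set that names 1 gene, and 46 were above the signal floor in at least 1 group. Psmb11, the thymic core subunit, was below the floor in all 5 groups. Psme2, the PA28beta activator subunit, was not read, because its probe set also names the copy Psme2b.

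The proteasome is the main protease of the cytosol and nucleus. Its barrel, the 20S core, is built of rings of alpha subunits around rings of beta subunits, and some of the beta subunits carry the active sites. The 19S cap binds ubiquitin-tagged proteins, removes the tag and feeds the unfolded chain into the barrel, whereas PA28 and PA200 open the barrel without ubiquitin. Mammalian testis makes its own form, in which the alpha4 subunit Psma7 gives way to its copy Psma8 and PA200 is abundant, and proteasomes act on the chromosome axes of meiotic prophase.

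The study was set up to find genes that act when chromosomes separate in the first meiotic division. RNA came from male C57BL/6 mice in 5 groups. Spermatogonia were Percoll gradient fraction 2 of testes at day 8, leptotene and zygotene spermatocytes were fraction 5 at day 12, and pachytene spermatocytes were fraction 8 at day 15. Whole testis was taken at day 15, and the somatic mix pooled 11 tissues of day 15 mice (spleen, skin, muscle and brain, with kidney, liver, lung and heart, and 3 parts of the gut). The labels give no mutation and no drug for any group, and the cell fractions differ in age as well as in stage.

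The 10 arrays were of 2 Affymetrix designs with different probe sets, and each group had 1 array of each. Of the proteasome genes, 46 were read from the first design, so most values below are 1 array per group, with no replicate and no test. There were 22690 probe sets on the first and 22575 on the other. Between 55.5% and 64.2% of the first design's probe sets exceeded its floor of 87.2, a signal that most probe sets for chemosensory receptors stay under. A gene's level below is the signal of its brightest probe set after the arrays of a design were brought to 1 trimmed mean. The 100 probe sets printed on both designs gave the error of a difference between groups, as 95% limits on the log2 scale of 0.35 for leptotene and zygotene against spermatogonia, 0.41 for pachytene against leptotene and zygotene, 0.46 for pachytene against whole testis and 0.57 for whole testis against the somatic mix. Below, a gene rose or fell where its signal differed at least 2-fold, which is outside all 4 limits. The limits come from bright probe sets and may be too narrow for dim ones. They do not cover the spread between probe sets of 1 gene. In the 4 comparisons, other first-design probe sets of proteasome genes shared the brightest one's direction in 15 of 27, 22 of 26, 15 of 24 and 20 of 24 cases. The median gaps were 0.19, 0.40, 0.54 and 0.32 on the log2 scale. The limits rest on the spread between the samples numbered 1 and 2 of a group. The sources used here do not say whether these were separate preparations, so the spread may be technical. The limits were computed with the trimmed mean scaling, and a call beyond a limit but under 2-fold can change with another scaling. Into pachytene, the 20S core median of -0.37 became 0.003 with median scaling and -0.71 on the values as deposited. These are bulk samples, in which fewer cells of a type and less RNA per cell cannot be told apart.

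The labelled stages were checked against marker genes. The summed signal of 10 pachytene markers was 888 in spermatogonia, 4181 in leptotene and zygotene, 72090 in pachytene, 36220 in whole testis and 790 in the somatic mix. The 8 leptotene and zygotene markers summed to 2940, 7735, 8401, 11348 and 211 in the same order, so their sum did not separate pachytene from the stage before. Gene by gene, their median difference into pachytene was -0.58, with 1 of the 8 at least 2-fold higher and 1 lower. The 10 spermatogonial markers summed to 6833, 10402, 1632, 4188 and 1128 in the same order. Their sum was highest in leptotene and zygotene, not in spermatogonia. Between these 2 groups their median was 0.55 and 0 were 2-fold apart, so they did not set spermatogonia apart from the next stage. The 11 Sertoli markers summed to 38459, 33780, 8977, 25157 and 4666, more in the spermatogonia fraction than in whole testis. All 11 Sertoli markers were above the floor in each of the 3 germ cell fractions, with the lowest sum in pachytene. From leptotene and zygotene to pachytene, 10 of 11 Sertoli markers and 9 of 9 measured spermatogonial markers fell at least 2-fold, with medians of -2.44 and -2.37, as did 4 of 4 Leydig markers and 4 of 8 peritubular and stromal markers, with medians of -2.72 and -0.93. Of 7 spermatid markers, 4 (Tnp1, Tnp2, Prm2 and Acrv1) were below the floor in every group. The part of these changes in cell makeup in the results below was not tested.

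Between leptotene and zygotene and pachytene some proteasome genes rose and others fell. The alternative alpha4 subunit Psma8, the PA200 activator Psme4, the inhibitor Psmf1, the cap ATPase Psmc3 and the cap lid subunit Psmd8 rose. The standard alpha4 subunit Psma7, the alpha subunit Psma1, the PA28 activator subunit Psme1, the inducible core subunits Psmb9 and Psmb10, the cap ATPase Psmc6 and the cap chaperones Psmd5 and Psmd10 fell. These are 5 genes higher and 8 lower of the 46 measured. Over all 13523 genes measured in this comparison, 18% were at least 2-fold higher and 27.7% lower, so proteasome genes were called no more often than genes at large. At 4-fold, 1 proteasome gene was higher (Psma8) and 3 lower (Psma7, Psmd10 and Psme1), beside 8.7% and 9.33% of all genes. The median difference of the 46 genes, -0.22 on the log2 scale, was also that of all genes. With median scaling of each array in place of the trimmed mean, the split was 8 higher and 5 lower, with scaling to the shared probe sets 9 and 5, and with the values as deposited 5 and 13.

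**Figure D1:**
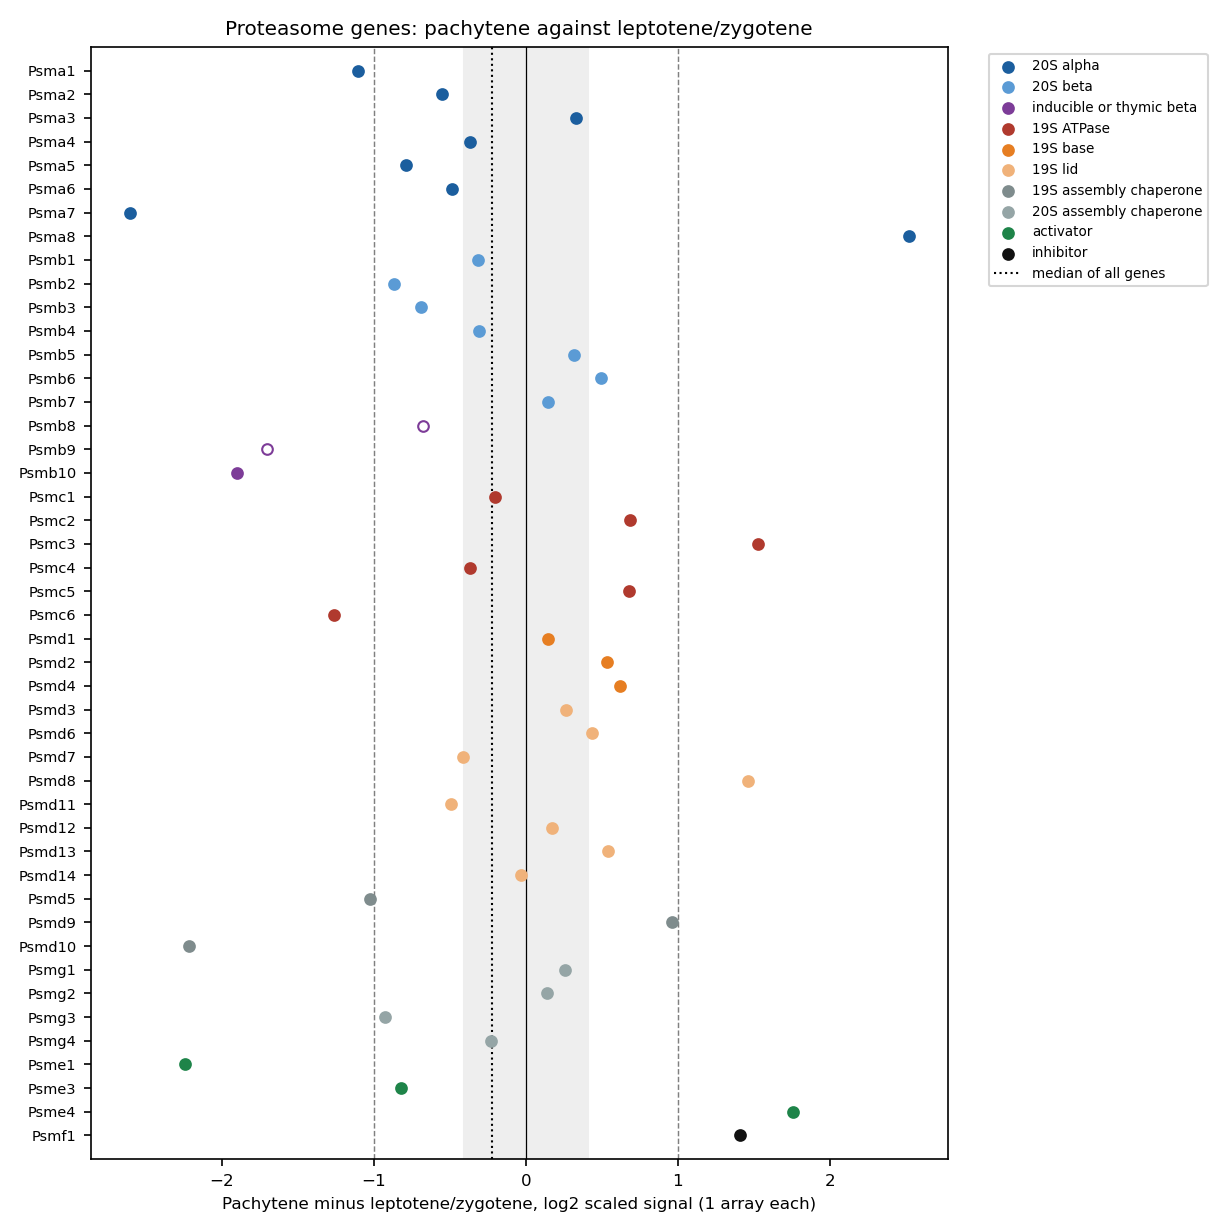
Each point is 1 gene, placed by its log2 difference in scaled signal between pachytene and leptotene and zygotene (x axis, 1 array each) and coloured by role. The grey band is the 95% error limit of 0.41, dashed lines mark 2-fold, the dotted line is the median of all genes, and open points are bounds against the floor. Psma7 at -2.60 and Psma8 at 2.52 lie at the opposite ends.

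The alpha4 pair showed the widest contrast. Psma8, the meiotic alpha4 subunit on chromosome 18, had a scaled signal of 109 in spermatogonia, 536 in leptotene and zygotene, 3069 in pachytene and 2377 in whole testis, and it was below the floor in the somatic mix. It was highest in pachytene and rose at both steps, by 2.30 on the log2 scale into leptotene and zygotene and by 2.52 into pachytene. Whole testis exceeded the somatic mix by at least 27.3-fold, counted against the floor.

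Psma7, the alpha4 subunit of the standard barrel on chromosome 2, had a signal of 3535 in spermatogonia, 4125 in leptotene and zygotene, 678 in pachytene, 2068 in whole testis and 2593 in the somatic mix. Pachytene was the lowest of the 5 groups, 6.08-fold below leptotene and zygotene and 3.05-fold below whole testis. A second Psma7 probe set on the same array gave -2.37 on the log2 scale, against -2.60 for the brightest. Between spermatogonia and leptotene and zygotene, where Psma8 was already rising, Psma7 differed by 0.22, which is within the error limit.

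The other alpha subunits, which form the outer rings and the gate of the barrel, were mostly lower in pachytene with the trimmed mean scaling. Psma1 had a signal of 2051 in spermatogonia, 1936 in leptotene and zygotene, 899 in pachytene, 1423 in whole testis and 1596 in the somatic mix, and it fell by 1.11 on the log2 scale into pachytene. Psma5 was lower by 0.79, Psma2 by 0.55 and Psma6 by 0.49, none of them 2-fold, although another Psma6 probe set read 0.16. Psma4 at -0.37 and Psma3 at 0.33 were within the error limit. Counting Psma7 and Psma8, 5 of 8 alpha genes were lower beyond the limit and 1 was higher, against 44% of all genes lower and 30% higher.

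Of the 7 standard beta subunits none rose or fell 2-fold in pachytene. Psmb2 at -0.86 and Psmb3 at -0.69, which carry no active site, were lower beyond the error limit, and Psmb6, the caspase-like site, was higher by 0.50. The trypsin-like Psmb7 at 0.14, the chymotrypsin-like Psmb5 at 0.32, and Psmb1 and Psmb4 at -0.31 each were within it. Second probe sets read lower for Psmb3, at -1.12, and for Psmb4, at -1.36.

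The inducible beta subunits replace the standard active sites in the immunoproteasome, which cells make under interferon. Psmb10 had a signal of 586 in spermatogonia, 580 in leptotene and zygotene, 156 in pachytene, 485 in whole testis and 2098 in the somatic mix. It was highest in the somatic mix and lowest in pachytene, where it fell by 1.90 on the log2 scale. Psmb9 read 108, 284, 39.9, 98.9 and 602 in the same order, and the pachytene value is below the floor, so the fall into pachytene was at least 3.26-fold. Psmb9 also rose by 1.39 from spermatogonia to leptotene and zygotene, at signals near the floor.

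Psmb8 was below the floor in spermatogonia and pachytene and had a signal of 139 in leptotene and zygotene, 182 in whole testis and 1073 in the somatic mix. In the somatic mix it was 5.88-fold above whole testis, where Psmb9 was 6.09-fold and Psmb10 4.32-fold above. The 13 macrophage and blood markers summed to 14979 in the somatic mix and 4804 in whole testis, with 9 of the 12 measured at least 2-fold lower in testis. In spermatogonia, leptotene and zygotene, and pachytene these markers summed to 1509, 2822 and 5514. Into leptotene and zygotene 5 of the 10 measured were at least 2-fold higher and 0 lower, with a median of 0.98, and into pachytene 3 of 12 were higher and 0 lower, with a median of 0.76. Their part in the values of the inducible subunits was not tested.

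**Figure D2:**
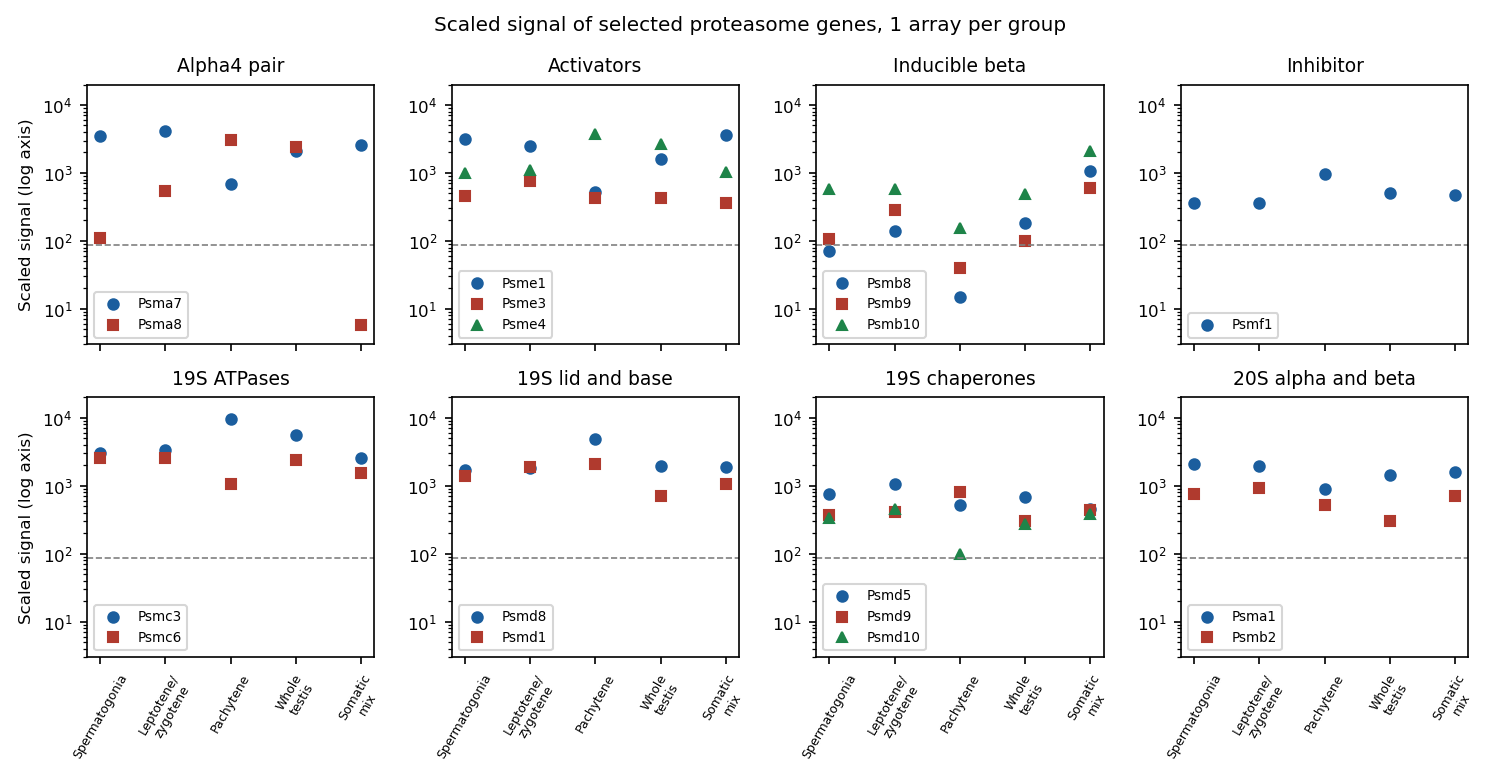
Scaled signal (y axis, log scale) of genes that the text turns on, in the 5 groups (x axis), 1 array per point. The dashed line is the floor of 87.2. Signals compare groups within a gene, not genes with each other. Psma8, Psme4, Psmc3, Psmd8, Psmd9 and Psmf1 peak in pachytene, whereas Psma7, Psmb9, Psmb10, Psmc6, Psmd10 and Psma1 are lowest there, and Psmb8 is below the floor there and in spermatogonia.

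In the 19S cap, most genes were level or higher in pachytene with the trimmed mean scaling. The ATPases form the ring that unfolds substrates. Psmc3 had a signal of 3057 in spermatogonia, 3312 in leptotene and zygotene, 9546 in pachytene, 5575 in whole testis and 2530 in the somatic mix. Pachytene was the highest group, 2.88-fold above leptotene and zygotene. Psmc6, another ATPase of the same ring, ran the other way, with a signal of 2514, 2576, 1072, 2417 and 1544 in that order and a fall of 1.26 on the log2 scale. A second Psmc6 probe set gave -1.73, its pachytene signal being below the floor. Psmc2 at 0.69 and Psmc5 at 0.68 were higher beyond the limit, and Psmc1 at -0.20 and Psmc4 at -0.37 were within it, although a second Psmc4 probe set read -0.95, so the 6 ATPase genes did not shift together.

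The base subunits are the scaffolds Psmd1 and Psmd2 and the ubiquitin receptor Psmd4. Psmd4 was higher in pachytene by 0.62 and Psmd2 by 0.53, and Psmd1 at 0.15 was within the limit. A second Psmd4 probe set read 0.008. Another, above the floor in 2 groups, was lower by at least 0.67, its pachytene signal being below the floor. Among the 8 lid subunits, which form the arm that holds the deubiquitinase, Psmd8 had a signal of 1674 in spermatogonia, 1792 in leptotene and zygotene, 4928 in pachytene, 1970 in whole testis and 1903 in the somatic mix. The pachytene array stood alone, 2.75-fold above leptotene and zygotene, and the other 4 groups lay between 1674 and 1970. Psmd13 at 0.54 and Psmd6 at 0.43 were higher beyond the limit, Psmd7 at -0.41 and Psmd11 at -0.49 were lower, and Psmd3 at 0.26, Psmd12 at 0.17 and the deubiquitinase Psmd14 at -0.03 were within it. A second Psmd6 probe set read 0.016. The 4 bright Psmd11 probe sets did not share a direction, since the others read -0.54, -1.47 and 0.45.

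The core genes had a lower median than the cap genes in this comparison. The median log2 difference was -0.37 over the 15 core genes and 0.26 over the 17 cap genes, beside -0.24 over the genes of the first design. Beyond the error limit, 2 core genes were higher and 7 lower, and 8 cap genes were higher and 3 lower, beside 30% of all genes higher and 44% lower. The core's 7 of 15 lower is close to that share of all genes. The cap count reads each gene from its brightest probe set, and second probe sets of Psmd4 and Psmd6 lay within the limit. Without Psma8 the core median was -0.43. A gap of 0.63 between these medians remains the same under any single scaling factor per array, whereas the sign of each median does not. The core median was 0.003 with median scaling and 0.06 with scaling to the shared probe sets, and the cap median was -0.08 on the values as deposited. Over the alternatives that kept both designs, the gap ranged from 0.54 to 0.79. The genes of a class are not replicates, and the gap was not tested.

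**Figure D3:**
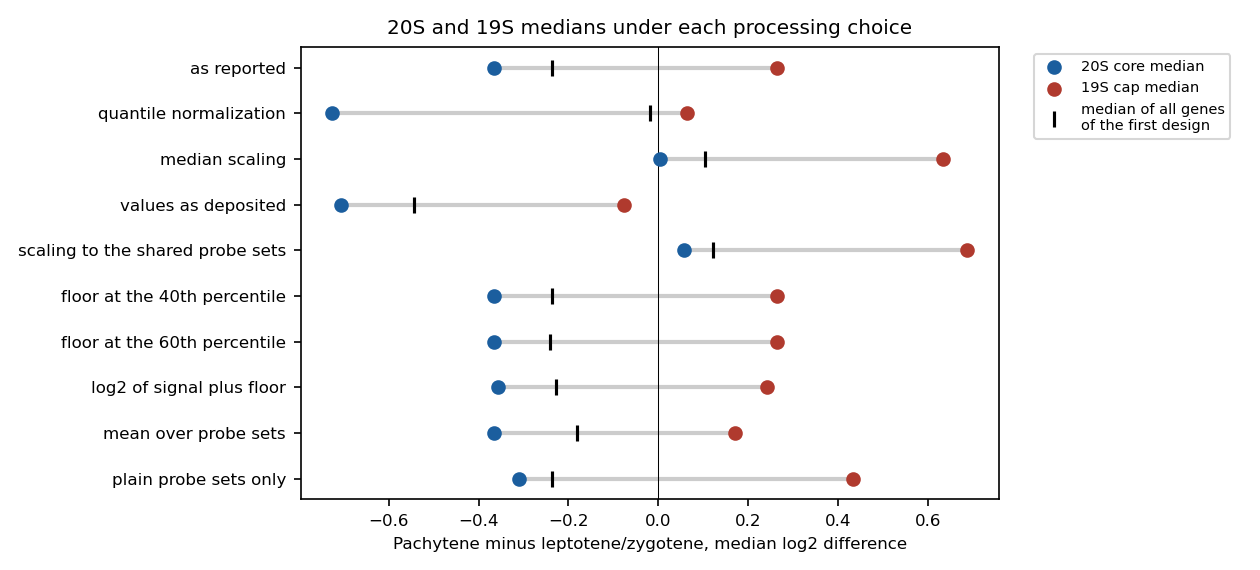
Median log2 difference between pachytene and leptotene and zygotene (x axis) of the 15 core genes (blue) and 17 cap genes (red) under each processing choice (y axis), with the median of all genes of the first design as a tick. The 19S median lies to the right of the 20S median in every row, while both move with the scaling.

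The assembly chaperones of the cap, which bring the ATPase ring together and leave the finished particle, split. Psmd10, also called gankyrin and the 1 gene of the set on chromosome X, had a signal of 337 in spermatogonia, 458 in leptotene and zygotene, 98.6 in pachytene, 270 in whole testis and 389 in the somatic mix. It was lowest in pachytene, close to the floor, and fell 4.64-fold. Psmd5 had a signal of 745, 1042, 512, 678 and 450 in that order and fell by 1.02 on the log2 scale, the smallest fall that passed 2-fold. Psmd9 read 365, 413, 807, 304 and 446, and its 1.95-fold increase into pachytene lay just under 2-fold. Of the chaperones of the core, Psmg3 was lower by 0.92, and Psmg1 at 0.26, Psmg2 at 0.14 and Psmg4 at -0.23 were within the error limit.

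The 3 activator genes went separate ways. Psme1, the PA28alpha subunit that partners the immunoproteasome, had a signal of 3146 in spermatogonia, 2465 in leptotene and zygotene, 520 in pachytene, 1587 in whole testis and 3617 in the somatic mix. It was lowest in pachytene and fell 4.74-fold from leptotene and zygotene. Psme4, which encodes PA200, had a signal of 996, 1091, 3691, 2685 and 1037 in the same order and rose 3.38-fold. Its 2 other usable probe sets on that design gave 1.10 and 2.02 on the log2 scale, beside 1.76.

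Psme3, the nuclear PA28gamma, read 459 in spermatogonia, 761 in leptotene and zygotene, 431 in pachytene, 435 in whole testis and 358 in the somatic mix. It was highest in leptotene and zygotene, 0.73 on the log2 scale above spermatogonia and 0.82 above pachytene. A second Psme3 probe set read 0.53 into leptotene and zygotene and -1.21 into pachytene. In pachytene against whole testis it read 0.93, beside -0.01 for the brightest. In whole testis against the somatic mix it read -0.42, beside 0.28. Psmf1, which encodes the inhibitor PI31, read 357, 358, 951, 504 and 481 and rose 2.66-fold into pachytene, with 1.19 and 0.94 on the log2 scale from 2 other probe sets. These 4 genes were above the floor of 87.2 in all 5 groups.

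The promoters of the genes with opposite courses are shown next, so that the sequence before each start can be set beside its course. Each is the 250 bases before the annotated start, on the gene's own strand, from RefSeq on GRCm38.p6, in lower case, with matches to the motifs searched in capitals. Psma7 lies at chr2:180042465-180042714 on the minus strand, Psme1 at chr14:55578244-55578493 on the plus strand, Psme4 at chr11:30771525-30771774 on the plus strand and Psmf1 at chr2:151741311-151741560 on the minus strand.
Psma7: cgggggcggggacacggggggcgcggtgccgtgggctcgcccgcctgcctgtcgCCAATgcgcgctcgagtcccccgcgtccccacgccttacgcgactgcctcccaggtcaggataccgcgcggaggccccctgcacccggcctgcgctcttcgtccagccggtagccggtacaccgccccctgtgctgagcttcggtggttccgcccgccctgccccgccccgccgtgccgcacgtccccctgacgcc
Psme1: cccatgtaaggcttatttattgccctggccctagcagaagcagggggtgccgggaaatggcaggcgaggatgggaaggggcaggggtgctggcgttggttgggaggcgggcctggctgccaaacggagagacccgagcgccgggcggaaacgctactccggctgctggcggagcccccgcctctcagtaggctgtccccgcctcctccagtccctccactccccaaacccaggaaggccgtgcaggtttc
Psme4: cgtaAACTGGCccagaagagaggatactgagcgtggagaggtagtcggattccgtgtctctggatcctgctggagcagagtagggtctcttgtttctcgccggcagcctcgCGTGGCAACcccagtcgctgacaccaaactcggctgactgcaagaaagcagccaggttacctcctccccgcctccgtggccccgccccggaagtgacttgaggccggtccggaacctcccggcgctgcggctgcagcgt
Psmf1: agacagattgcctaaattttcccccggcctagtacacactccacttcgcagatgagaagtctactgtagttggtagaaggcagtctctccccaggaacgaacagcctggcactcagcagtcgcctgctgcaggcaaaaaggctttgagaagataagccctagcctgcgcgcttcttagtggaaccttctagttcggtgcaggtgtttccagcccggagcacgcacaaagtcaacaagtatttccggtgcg

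The motifs, searched on both strands of the 300 bases around each start, were the antioxidant response core TGACNNNGC bound by Nfe2l1 and Nfe2l2, the CCAAT box, the cAMP response element TGACGTCA, the MYB site AACTGNC and GTTGCCNNG of the X-box. The capitals mark a CCAAT box 196 bases before the start of Psma7 and, in Psme4, a MYB match 246 bases before the start and an X-box match on the opposite strand 139 bases before it. Psme4 also held the antioxidant response core in the 300 bases searched, but not wholly within the bases printed, so it is not marked. Psme1 and Psmf1 held no match in the bases printed. Of 41 promoter entries for 39 proteasome genes, 14.6% held the antioxidant response core, against 12.4% of all 32851 promoters. The CCAAT box was in 34.1% against 37.4%, the MYB site in 12.2% against 12.8%, the X-box match in 4.88% against 5.00%, and the cAMP response element in 0 against 1.79%. A match is a run of letters and was not tested as a binding site.

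Before pachytene few genes changed 2-fold, among the proteasome genes as among all genes. From spermatogonia to leptotene and zygotene, Psma8 and Psmb9 rose and 0 of 46 genes fell, beside 3.41% of all 12919 genes measured at least 2-fold higher and 4.79% lower. The other 44 genes differed by less than 2-fold, and 34 of the 46 lay within the error limit. In this step 5 of 10 macrophage and blood markers were at least 2-fold higher and 0 lower, with a median of 0.98. Lyz2 was higher by 1.52 and Tyrobp by 1.35, whereas Cd14 was lower by 0.68 and Laptm5 by 0.06. Of 9 measured antigen presentation and interferon genes, 1 was at least 2-fold higher and 0 lower, with a median of 0.23. That gene was the class I gene H2-K1, by 1.05, whereas B2m was lower by 0.55. Irf1 differed by 0.01 and the inducible Psmb10 by -0.02. The part of these genes in the Psmb9 value was not tested. At 4-fold, Psma8 was higher and no gene lower, beside 0.31% and 0.279% of all genes. Beyond the error limit were 11 genes higher and 1 lower, where all genes gave 24.1% and 22.2%. Among the higher were Psme3 by 0.73, Psmb8 by at least 0.68 against the floor, Psmd14 by 0.51, Psmd2 by 0.49, Psmd5 by 0.48 and Psmg1 by 0.47, and Psme1 was lower by 0.35. The medians were 0.11 for the core, 0.21 for the cap and 0.02 for all genes of the first design.

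Against whole testis of the same day, pachytene cells had more signal for 3 cap genes and 1 cap chaperone gene. Psmd1, Psmd8, Psmd9 and Psmd13 rose and Psma7, Psmb8, Psmb10, Psmc6, Psmd10 and Psme1 fell, which is 4 higher and 6 lower of 46, beside 12.7% and 20.5% of all 13846 genes measured. No proteasome gene differed 4-fold, as did 2.35% of all genes upward and 4.39% downward. Beyond the error limit, 11 proteasome genes were higher and 10 lower, beside 25.7% and 38.2% of all genes. These counts read the brightest probe set, whose direction other probe sets shared in 15 of 24 cases, with a median gap of 0.54. For genes at least 2-fold apart, 4 of 4 shared it. Median scaling gave 10 higher and 5 lower at 2-fold, and scaling to the shared probe sets gave 8 and 5. The pachytene arrays are the same as in the comparison with leptotene and zygotene, so the shared names are not a second observation.

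Psmd1, the cap scaffold, had the largest excess over whole testis, with a signal of 2064 in pachytene and 701 in whole testis, or 2.94-fold. It was 1410 in spermatogonia, 1866 in leptotene and zygotene and 1060 in the somatic mix, so whole testis was the lowest group. Psmd9 was above whole testis by 1.41 on the log2 scale and Psmd8 by 1.32. A second Psmd9 probe set, near the floor, read 0.55. Psmd13, with a signal of 738, 930, 1353, 618 and 672, was 2.19-fold above whole testis. Its other usable probe sets read 0.60, 1.12 and -0.55 on the log2 scale, the last with the opposite sign. Whole testis was the lowest group for Psmd9 and Psmd13 too. The fall of Psme1 was 3.05-fold, that of Psmb10 3.12-fold, that of Psmd10 2.74-fold and that of Psmc6 2.25-fold, and Psmb8 was at least 2.09-fold lower. Psmc6, Psmd9, Psmd10 and Psmd13 each lost the 2-fold call under at least 1 other processing choice. Psmd10 was then as small as -0.27 on the log2 scale. Psma8 at 0.37 and Psme4 at 0.46 did not exceed the error limit here.

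**Figure D4:**
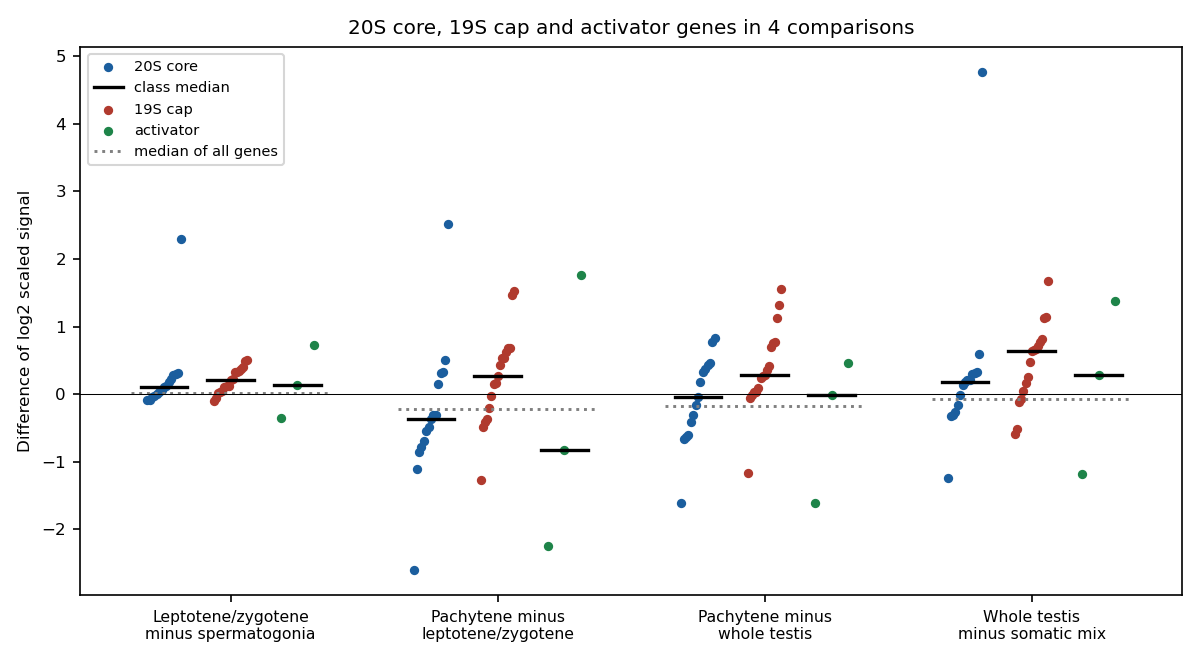
Log2 difference in scaled signal (y axis) of each core gene (blue), cap gene (red) and activator gene (green) in the 4 comparisons (x axis). Bars are class medians and dotted lines the median of all genes. The cap median is above the core median in each comparison, by 0.10, 0.63, 0.33 and 0.46 from left to right, although plain probe sets turn the first gap to -0.066.

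In whole testis against the somatic mix, Psma8 lay at the upper end of the 46 genes and Psmb9, Psmb8 and Psmb10 at the lower end. Psma8, Psme4, the ATPase genes Psmc2 and Psmc3, the scaffold gene Psmd2 and the core chaperone gene Psmg1 were at least 2-fold higher in testis. Psmb2, Psmb8, Psmb9, Psmb10 and Psme1 were lower. These 6 higher and 5 lower genes of 46 stand beside 19.2% and 18.4% of all 14992 genes. At 4-fold they were 1 (Psma8) and 3 (Psmb8, Psmb9 and Psmb10), beside 7.22% and 5.7%. Beyond the error limit, 15 were higher and 6 lower, beside 29% and 30.6% of all genes. Psmd2 had a signal of 1640 in spermatogonia, 2304 in leptotene and zygotene, 3335 in pachytene, 2775 in whole testis and 867 in the somatic mix, and was higher in whole testis by 1.68 on the log2 scale. The somatic mix was the lowest group for it, as it was for Psmc2, with 3802, 3558, 5723, 5755 and 2624.

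Psme4 was 2.59-fold and Psmc3 2.20-fold higher in whole testis than in the somatic mix, and Psme1 was 2.28-fold lower. The other usable Psme4 probe sets read 0.11 and 1.00 on the log2 scale, and Psme4 lost its call with the mean over probe sets and with plain probe sets, where the lowest value was 0.83. Psmb2, a core beta subunit, had a signal of 754, 937, 515, 301 and 715 in the 5 groups and was 2.37-fold lower in whole testis, which was its lowest group. The cap median was 0.64 and the core median 0.18, beside -0.04 for all genes of the first design. Of the 17 cap genes, Psmd1 at -0.60 was lower beyond the error limit, and the 20S genes Psma7 at -0.33 and Psma1 at -0.17 were within it.

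Psma1, Psmb5 and Psmc5 were measured by the same probe set on both designs, hence on 2 arrays per group, and could be tested with limma. The sources used here do not say whether the samples numbered 1 and 2 were separate preparations, so the p-values measure the spread between these samples, which may be technical. Psma1 had second-design signals of 2016 in spermatogonia, 1809 in leptotene and zygotene, 964 in pachytene, 1450 in whole testis and 1688 in the somatic mix, and both pachytene arrays were below all others. Its fall into pachytene was 1.01 on the log2 scale (SE 0.161, limma adjusted p = 3.6e-06 over the 100 shared probe sets). Against whole testis it was lower by 0.63 (SE 0.161, limma adjusted p = 0.0013), but on the values as deposited the difference was -0.34 and was not called (limma adjusted p = 0.458).

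Psmc5 had signals of 2172 and 2405 in spermatogonia, 2236 and 2396 in leptotene and zygotene, 3586 and 3159 in pachytene, 2685 and 2298 in whole testis and 1938 and 2366 in the somatic mix, for the first and second design. Both pachytene arrays were above all others. The difference from leptotene and zygotene was 0.54 (SE 0.171, limma adjusted p = 0.0064). It rests on the scaling, since quantile normalization gave -0.08 (limma adjusted p = 0.795) and the values as deposited did not call it (limma adjusted p = 0.13). It also lost its call when either the first pachytene array (limma adjusted p = 0.0673) or the first leptotene and zygotene array (0.0762) was left out.

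Psmb5 had signals of 2795 and 3283 in spermatogonia, 3034 and 3144 in leptotene and zygotene, 3777 and 3417 in pachytene, 2816 and 2486 in whole testis and 3387 and 3382 in the somatic mix. It was not called between pachytene and leptotene and zygotene, where the difference was 0.22 with a 95% interval from -0.12 to 0.56 (limma adjusted p = 0.251). Both Psmb5 and Psmc5 were higher in pachytene than in whole testis, by 0.44 each (limma adjusted p = 0.0209 and 0.0257). Under quantile normalization these were -0.17 and -0.15, and neither was called, nor was either on the values as deposited (limma adjusted p = 0.105 each). Leaving out the first pachytene array ended both calls (limma adjusted p = 0.139 and 0.167), as did leaving out the second whole testis array (0.11 and 0.157). Of all 100 shared probe sets limma called 69% between pachytene and leptotene and zygotene, 50 of them lower and 19 higher, and 68% between pachytene and whole testis. In the other comparisons limma called 8% and 46% of the shared probe sets and none of Psma1, Psmb5 and Psmc5. Psmb5 in whole testis against the somatic mix, at -0.36, was the exception before adjustment, with a limma p of 0.0413 and an adjusted p of 0.0765.

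**Figure D5:**
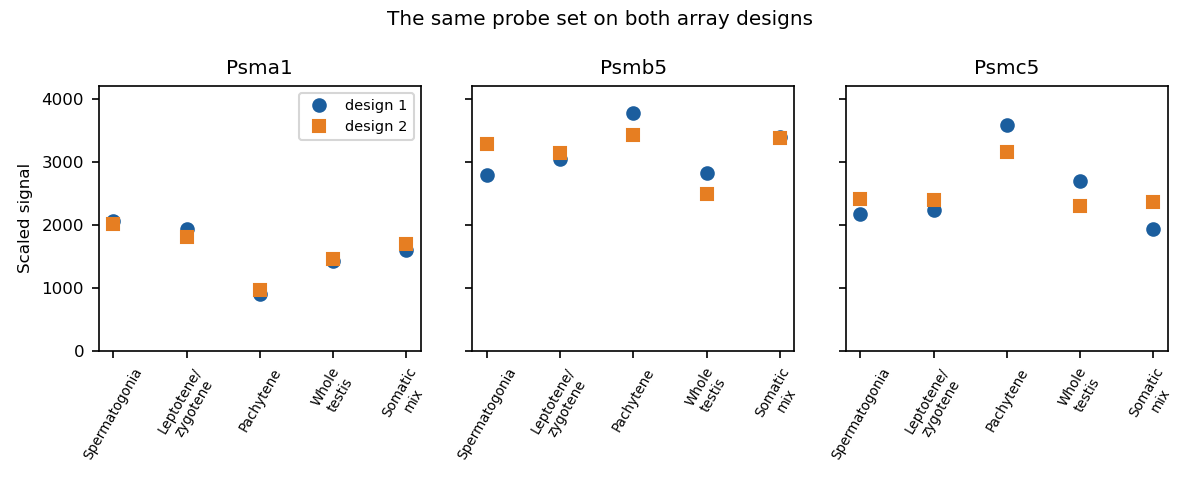
Scaled signal (y axis, linear from 0) of Psma1, Psmb5 and Psmc5 in the 5 groups (x axis), with 1 point per array design. The 2 pachytene points are the lowest of the panel for Psma1, at 899 and 964, and the highest for Psmc5, at 3586 and 3159.

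Genes that work with the proteasome were taken from lists fixed by name. Of the partners and regulators, 9 of 11 were read, and between leptotene and zygotene and pachytene Ube3c, a ubiquitin ligase of the proteasome, rose by 1.54 and Akirin2, which carries proteasomes into the nucleus, by 1.31, while Txnl1, a cap-bound thioredoxin, fell by 1.10. The list's median was -0.14. Of the shuttle and unfolding factors, 8 of 11 were measured, with a median of -0.41, and the ubiquitin shuttle Ubqln2 fell by 2.46 and Nsfl1c, a cofactor of the unfoldase Vcp, by 1.11. The median of all genes was -0.22.

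The transcription factors of proteasome genes and their processing enzyme were mixed. Of 7 measured, Nfe2l2 fell by 2.58, Nfe2l1 by 1.17 and Nfyb, a CCAAT-box subunit, by at least 5.51-fold. Ngly1, the glycanase that activates the Nfe2l1 protein, rose by 2.12 and Mybl1, the meiotic MYB factor, by 1.61. The list's median was -0.80. Among the ubiquitin genes and E1 enzymes, Uba6 and Uba7 of the 8 listed were read. Uba6 fell by 1.88 and Uba7 rose by at least 2.67-fold against the floor.

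Of 11 antigen presentation and interferon genes, 10 were measured, with a median of -0.47 in pachytene against leptotene and zygotene. The interferon factor Irf1 fell by 1.64 and the peptide trimmer Erap1 by at least 2.13-fold, and the other 8 changed less than 2-fold, as B2m did at -0.31 and Tap1 at -0.39. Against the somatic mix, 5 of the 10 were at least 2-fold lower in whole testis and 0 higher, with a median of -1.03. Cd74, the class II chaperone, was 9.76-fold lower there, whereas Tapbp was higher by 0.20 and Erap1 by 0.21 on the log2 scale. Psmb8, Psmb9, Psmb10 and Psme1 were all lower in that comparison, as given above.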

How the data were processed

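The members and gene lists were chosen with earlier results of these data known. The authors deposited linear intensity values, 1 per probe set. GCOS 1 is named in the submitters' processing notes, and the sources used here do not give its scaling target. Total RNA was labelled as biotin cRNA, per the labels. Arrays of a design were brought to a common 2% trimmed mean. The floor was the 90th percentile of 72 probe sets for chemosensory receptors on the first design (87.2), and on the second, with 15, the median of all signals (47.0). Levels below it were set to it before log2, and such differences are bounds. Each gene was read from its brightest probe set naming 1 gene, on the first design where above the floor. Symbols were updated by Entrez ID (RefSeq, GRCm38.p6; 20351 of 20380 and 14486 of 14661 probe sets matched). Any proteasome gene could be named, and list genes where 2-fold apart between pachytene and leptotene and zygotene. B2m, Tap1, Tapbp, Cd74, H2-K1, Lyz2, Tyrobp, Cd14 and Laptm5 fall outside this rule and were chosen after their values were seen. limma 3.58.1 (R 4.3.3; Benjamini-Hochberg, 0.05) fitted the 100 shared probe sets over 5 groups. Scripts in python 3.11.15 were tested on simulated data. The number of arrays limits the precision.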

Additional observations from a re-analysis of the deposited data

How the results depend on the processing

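Of the genes at least 2-fold apart, 8 of 13 kept their call between pachytene and leptotene and zygotene under each of the other scalings, floors and probe set rules that gave them a value, 6 of 10 between pachytene and whole testis, 8 of 11 between whole testis and the somatic mix and 1 of 2 between leptotene and zygotene and spermatogonia. Of those that kept it, Psmd10 (into pachytene) had a value under 8 of the 9 alternatives, and Psmb8 under 7 (pachytene against whole testis) and 8 (whole testis against the somatic mix). Psma1, Psmc6, Psmb9, Psmd5 and Psmf1 lost the call into pachytene under at least 1 of them. Psmc6, Psmd9, Psmd10 and Psmd13 lost it for pachytene against whole testis. Psme1, Psme4 and Psmg1 lost it for whole testis against the somatic mix, and Psmb9 for leptotene and zygotene against spermatogonia. The cause was not tested. Pachytene against leptotene and zygotene depended most on scaling. Median scaling gave 8 higher and 5 lower, with medians of 0.0033 (core), 0.63 (cap) and -0.45 (activators). Scaling to the shared probe sets gave 9 and 5, with 0.057, 0.69 and -0.40. Values as deposited gave 13 lower, with -0.71, -0.076 and -1.16. Quantile normalization gave a core median of -0.73 and an activator median of -0.47. For pachytene against whole testis, median scaling gave 10 higher, with medians of 0.31, 0.64 and 0.35, values as deposited -0.35, -0.022 and -0.32, and scaling to the shared probe sets 8 higher. The mean over probe sets gave 2 higher there, an activator median of 0.30, and -0.047 for activators in whole testis against the somatic mix. Plain probe sets gave 3 lower for pachytene against whole testis, 1 lower for leptotene and zygotene against spermatogonia, a cap median of 0.25 for whole testis against the somatic mix, and -0.55 for Psmd13 in pachytene against whole testis, opposite in sign. The gap of cap over core for leptotene and zygotene against spermatogonia, 0.10, turned to -0.066 with plain probe sets and -0.58 on the second design alone. A floor at the 60th percentile, or signal plus floor, gave 1 higher for leptotene and zygotene against spermatogonia. At 4-fold, 1 gene was higher for leptotene and zygotene against spermatogonia, 1 higher and 3 lower into pachytene, 0 and 0 against whole testis, and 1 and 3 for whole testis against the somatic mix.

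Apart from Psma1, Psmb5 and Psmc5, each gene has 1 array per group, so leaving out the samples numbered 1 leaves the second design, on which 6 to 9 proteasome genes were measured, and most values there rest on dim probe sets. Over leaving out the samples numbered 1 or those numbered 2, the count higher ranged from 0 to 2 for leptotene and zygotene against spermatogonia, 1 to 5 for pachytene against leptotene and zygotene, 1 to 4 for pachytene against whole testis and 0 to 6 for whole testis against the somatic mix. The count lower ranged from 0 to 1, 0 to 8, 0 to 6 and 1 to 5 in the same order. The cap median ranged from -0.65 to 0.21 for leptotene and zygotene against spermatogonia and from -0.10 to 0.64 for whole testis against the somatic mix, the core median there from -0.44 to 0.18, and the activator median into pachytene from -0.82 to -0.21. On the second design alone Psme4 read -0.21 into pachytene, Psmd13 -0.55 in pachytene against whole testis and Psmd2 -0.80 in whole testis against the somatic mix, opposite in sign to the 1.76, 1.13 and 1.68 that the first design alone gave. Leaving out each array in turn, limma called 0 to 12 shared probe sets for leptotene and zygotene against spermatogonia, where 8 were called with all arrays, and 0 with quantile normalization or values as deposited. For pachytene against whole testis it called 38 with quantile normalization and 31 with values as deposited, and for whole testis against the somatic mix 20 with values as deposited. With quantile normalization Psmc5 was -0.081 into pachytene, and Psmb5 and Psmc5 were -0.17 and -0.15 in pachytene against whole testis.

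With the replicate number, which is the array design, as a block, limma called 14, 70, 69 and 52 of the 100 shared probe sets in the 4 comparisons, against 8, 69, 68 and 46 without the block, and no call of Psma1, Psmb5 or Psmc5 changed. The calls given above were made without the block. The correlation of same-numbered deviations ranged from -0.016 to 0.572 over the 10 pairs of groups. Same-numbered arrays thus shared deviations in some pairs, which the fit without the block ignores.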
